A study of Mus musculus with 10 samples.

Results

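The platelet-derived growth factor (PDGF) system was read as 6 genes: the receptors Pdgfra and Pdgfrb and the ligands Pdgfa, Pdgfb, Pdgfc and Pdgfd. They were taken by name from the gene count table, as 6 of 55417 named genes, and they were picked with their levels in these same 10 libraries already known. Their levels, differences and transcript shares are therefore a description, and no test is given for a member. The libraries are RNA-seq of 10 mouse cell lines, 1 library each, so every spread below is a spread between lines.

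The parental line, 4T1-hHER2, is a mouse mammary carcinoma line labelled with the strain BALB/cfC3H and made to express human HER2 and luciferase stably by lentivirus. The 9 derived lines carry the strain label NOD-SCID-GAMMA, an immunodeficient host known to lack T, B and natural killer cells, and all trace back to circulating tumour cells (CTCs) of NSG mice that bore 4T1-hHER2 tumours. They form 3 groups of 3: fat pad tumour (primary; numbers 5, 7 and 8), CTC (1, 3 and 6) and lung metastasis (3, 5 and 7). The numbers are those in the titles, which do not say what they stand for, and no label says which lines came from the same mouse.

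PDGFs are disulfide-linked dimers that pair up receptor tyrosine kinases on the cell surface and so switch on PI3K, phospholipase C gamma, Src and Ras signalling. PDGF-AA and PDGF-CC act chiefly through PDGFR-alpha, PDGF-DD through PDGFR-beta, and PDGF-BB binds both receptors. In mammary tumours the receptors are known mainly from fibroblasts and pericytes and the ligands from carcinoma cells, and receptor expression by the carcinoma cells themselves has been linked to a mesenchymal state.

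The stretches of sequence that the transcript results turn on are the upstream start region of Pdgfra and the alternative ends of the Pdgfa coding sequence. Pdgfra (ENSMUSG00000029231.15) lies on the plus strand at chr5:75152292-75198215 in GRCm38. The RefSeq promoter window of the gene (chr5:75152001-75152300, build GRCm38.p6, plus strand, 250 bases before to 50 after its start) ends just before the annotated start of transcript Pdgfra-201 at position 75152306, while transcript Pdgfra-202 starts 3593 bases downstream at 75155899 and has the same coding exons. The window is printed in lower case throughout, because none of the 4 motifs searched on both strands occurred in it.
Pdgfra upstream start window: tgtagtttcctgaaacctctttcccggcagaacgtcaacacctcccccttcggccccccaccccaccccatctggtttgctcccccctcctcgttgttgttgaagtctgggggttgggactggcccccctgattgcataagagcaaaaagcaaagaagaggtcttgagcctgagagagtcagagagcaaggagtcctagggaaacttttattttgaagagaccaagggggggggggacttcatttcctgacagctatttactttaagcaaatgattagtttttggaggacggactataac
The motifs were the TATA box TATAAA, the GC box GGGCGG, the AP-1 site TGANTCA and the E-box CACCTG that ZEB and SNAIL factors bind. Over all 32851 RefSeq promoter windows of this length they occurred in 13.6%, 35.7%, 7.81% and 20.2%, and no match says only that these letters are not in these bases. The GC content of the Pdgfra window was 51.0%, beside a median of 52.67% over all windows. The RefSeq windows matched 4 of the 6 members, all but Pdgfb and Pdgfrb.

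Pdgfa (ENSMUSG00000025856.15) lies on the minus strand at chr5:138976014-138997370. The coding sequences of its transcripts differ through 1 exon of 69 bases, chr5:138978622-138978690, which the long form Pdgfa-201 includes and the short form Pdgfa-202 skips. The coding transcripts also differ in where they start and end. The exon gives the long protein a basic tail that is known to hold it to the cell surface and matrix. Below, the last 30 coding bases that both forms share are in lower case (chr5:138979146-138979175) and the end particular to each form, up to and with its stop codon, is in capitals (chr5:138978635-138978690 for the long form, chr5:138977217-138977227 for the short form; minus strand, GRCm38).
Pdgfa-201 (long form): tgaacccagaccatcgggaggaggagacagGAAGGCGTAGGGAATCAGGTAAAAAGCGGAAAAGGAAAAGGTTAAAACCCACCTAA
Pdgfa-202 (short form): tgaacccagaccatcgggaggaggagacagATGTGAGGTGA
The long end has 18 codons before its TAA stop and the short end has 3 before its TGA stop, which makes proteins of 211 and 196 residues.

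Pdgfra was the receptor found in every library, at levels that differed widely between lines. Its level is given in CPM (counts after scaling for library size and TMM factors). It was at 4.45 in the parental line, at 58.1, 4.84 and 4.06 in primary lines 5, 7 and 8, at 72.3, 141 and 10.1 in CTC lines 1, 3 and 6, and at 269, 126 and 11.3 in metastasis lines 5, 3 and 7. The widest step in the order of levels, 5.16-fold, was between 11.3 CPM in metastasis line 7 and 58.1 CPM in primary line 5. Each derived group held lines on both sides of that step, and the parental line was on the low side. The highest library was 66.4-fold above the lowest.

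The group means of Pdgfra were 22.3 ± 31.0 CPM in primary, 74.5 ± 65.4 in CTC and 135 ± 129 in metastasis lines (SD, n = 3 each), so the SD was close to or above the mean in every group. Fitted log2 differences were 2.60 (SE 1.39) for metastasis minus primary, 1.74 (SE 1.35) for CTC minus primary and 0.86 (SE 1.32) for metastasis minus CTC. The groups overlapped in all 3 comparisons. Single lines moved these values: metastasis minus primary was 4.93 without primary line 5 and 1.62 without metastasis line 5, and CTC minus primary was 4.07 without primary line 5 and 0.89 without CTC line 3. Metastasis minus CTC ran from -0.12 without metastasis line 5 to 1.72 without CTC line 3. Against the parental library, which has no replicate, 8 of the 9 derived lines were higher, by 1.09-fold in primary line 7 up to 60.5-fold in metastasis line 5, and primary line 8 was at 0.912 of it.

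**Figure D1:**
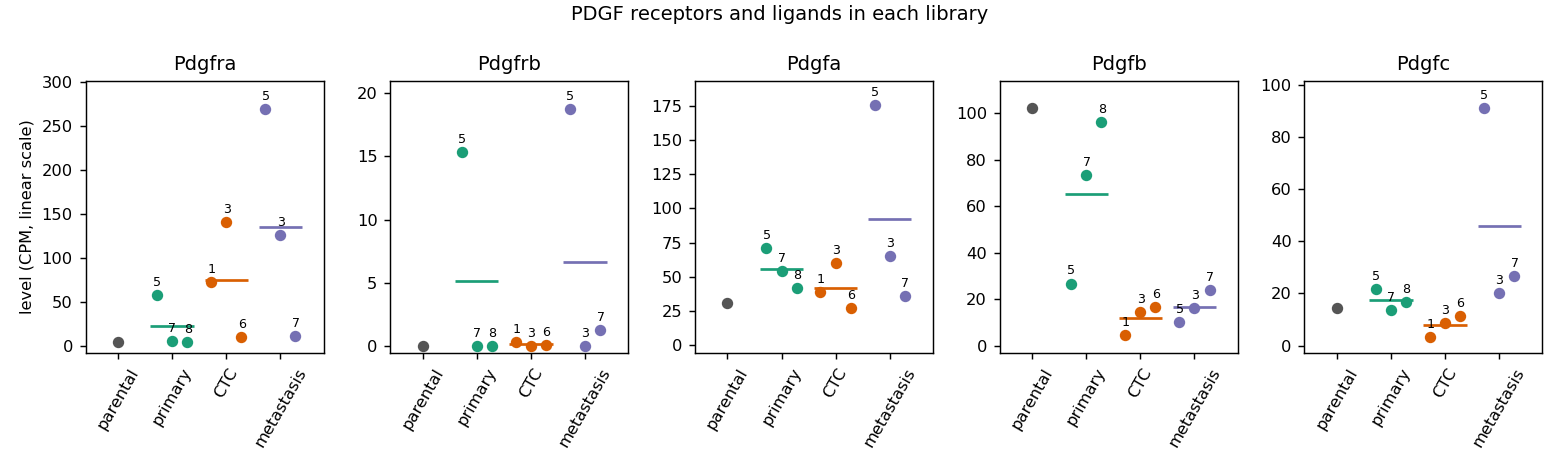
Level of each detected member (CPM, linear axes that differ between panels) by group, with 1 point per library, its title number beside it and a bar at the mean of each derived group. Pdgfra splits into high and low lines in every derived group, Pdgfb is high in the parental line and in primary lines 7 and 8, and metastasis line 5 is highest for Pdgfra, Pdgfrb, Pdgfa and Pdgfc.

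Pdgfrb (ENSMUSG00000024620.11, chr18:61045150-61085061, plus strand), the receptor known from pericytes and vascular smooth muscle, was close to absent outside the lines numbered 5. It had 1101 counts (15.3 CPM) in primary line 5 and 1440 counts (18.7 CPM) in metastasis line 5. The parental line, primary lines 7 and 8, CTC line 3 and metastasis line 3 had 0 counts, CTC lines 1 and 6 had 20 and 4 counts (0.267 and 0.061 CPM), and metastasis line 7 had 90 counts (1.23 CPM). The high libraries thus were a primary and a metastasis line that share the number 5. No fitted difference is given, because it would depend on the prior count added to the libraries at 0. CTC line 3 and metastasis line 3, which were next to metastasis line 5 in Pdgfra level, were both at 0 for Pdgfrb.

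Transcript shares of the receptors also split the lines. All Pdgfrb counts of the lines numbered 5 were assigned to transcript Pdgfrb-201, and all those of CTC lines 1 and 6 and metastasis line 7 to Pdgfrb-202. The latter were only 20, 4 and 90 counts. The transcripts are close to alike, with 5407 and 5423 bases and starts at positions 61045150 and 61045200. How reads were divided between them was not tested. For Pdgfra, transcripts that begin at the upstream start (Pdgfra-201, Pdgfra-207 and Pdgfra-208) took 25.5% of the counts in primary line 5, 17.7% in CTC line 1, 26.2% in CTC line 3, 35.7% in metastasis line 5 and 36.3% in metastasis line 3. They had 0 counts in the parental line, primary lines 7 and 8, CTC line 6 and metastasis line 7. Pdgfra-205, which starts between the upstream start and that of Pdgfra-202, at position 75152935, is not among them: it had 27, 10, 20 and 30 counts in the last 4 of these libraries and 0 in the parental line. The 5 libraries without upstream counts had 295 to 826 Pdgfra counts each, and a count of 0 there allows a share of up to 0.363% to 1.02%.

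The libraries with upstream counts were the 5 with the highest Pdgfra level. Pdgfra-202, from the downstream start, took 63.0% to 98.1% of the counts and was the leading transcript in all 10 libraries. Per length, in TPM (counts divided by transcript length and scaled to the same sum in each library), Pdgfra-202 was at 46.1 and Pdgfra-201 at 27.1 in metastasis line 5, and at 1.05 and 0 in the parental line. The Wilson 95% intervals of the upstream shares above 0 reached at most 1.32 percentage points to either side. They cover counting error only: StringTie divides reads among transcripts that share exons, and its part in these shares was not tested.

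**Figure D2:**
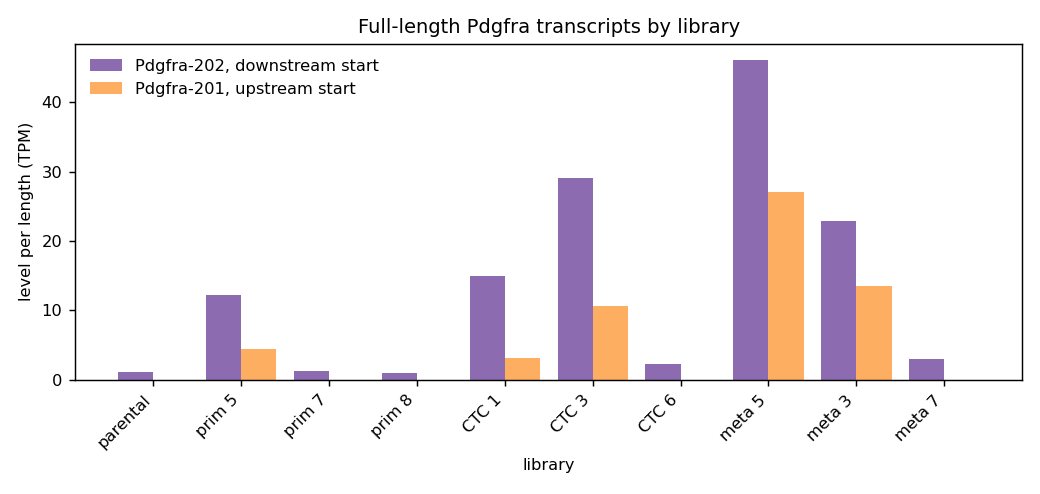
Level per length (TPM, bars from 0) of the full-length transcripts Pdgfra-201, from the upstream start, and Pdgfra-202, from the downstream start, in each library. Pdgfra-201 is seen in primary line 5, CTC lines 1 and 3 and metastasis lines 5 and 3 and is at 0 in the other libraries, while Pdgfra-202 is present in all 10.

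Among the ligands, Pdgfb (ENSMUSG00000000489.7, chr15:79995874-80014977, minus strand), which encodes the chain that recruits pericytes to vessels, was lower in the CTC and metastasis lines than in the primary lines. It was at 102 CPM in the parental line, at 26.7, 73.2 and 96.3 CPM in primary lines 5, 7 and 8, at 4.64, 14.2 and 16.4 CPM in CTC lines 1, 3 and 6, and at 10.3, 16.3 and 23.8 CPM in metastasis lines 5, 3 and 7. The lowest primary line was above every CTC and metastasis line (26.7 CPM beside 23.8 CPM in metastasis line 7), and all 9 derived lines were below the parental line. Means were 65.4 ± 35.4 CPM in primary, 11.8 ± 6.25 in CTC and 16.8 ± 6.77 in metastasis lines (SD, n = 3 each).

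The fitted log2 difference of Pdgfb was -2.48 (SE 0.61) for CTC minus primary, -1.96 (SE 0.60) for metastasis minus primary and 0.51 (SE 0.58) for metastasis minus CTC. Against the parental line it was -2.12 (SE 0.62) for the mean of the derived groups. In metastasis against primary, 1 of the 5 members tested was lower with groups that did not overlap, beside 7.27% of all genes tested. In CTC against primary these were 2 of 5 members, Pdgfb and Pdgfc, beside 4.02% of all genes. In all derived lines against the parental line it was 1 of 5, Pdgfb, beside 15.4%. The members were picked on these very levels, so nothing is read from the counts.

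Pdgfa, the ligand of PDGFR-alpha known to be made by many epithelia, was present in every library. It was at 31.0 CPM in the parental line, at 70.8, 54.2 and 41.8 CPM in primary lines 5, 7 and 8, at 39.0, 60.3 and 27.4 CPM in CTC lines 1, 3 and 6, and at 175, 65.1 and 35.8 CPM in metastasis lines 5, 3 and 7. Apart from metastasis line 5, which was 2.47-fold above the second library, the derived groups overlapped, with 2 of the 3 CTC lines below every primary line. Metastasis minus primary was 0.73 (SE 0.55) on the log2 scale, and without metastasis line 5 it turned to -0.14. CTC minus primary was -0.40 (SE 0.55), metastasis minus CTC was 1.12 (SE 0.56), and the groups overlapped in each comparison. An antisense gene, 6330403L08Rik, overlaps exons of Pdgfa and had 5.68 to 24.1 CPM, also highest in metastasis line 5. No source used here says whether strand was counted, so reads of the pair cannot be told apart.

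Pdgfc (ENSMUSG00000028019.9, chr3:81036416-81214040, plus strand) encodes a ligand secreted in a latent form that a protease must cleave. It was at 14.4 CPM in the parental line, at 21.8, 13.6 and 16.6 CPM in primary lines 5, 7 and 8, at 3.29, 8.70 and 11.5 CPM in CTC lines 1, 3 and 6, and at 91.0, 20.3 and 26.8 CPM in metastasis lines 5, 3 and 7. All CTC lines were below all primary and all metastasis lines, and the primary and metastasis groups overlapped between 20.3 and 21.8 CPM. Metastasis minus CTC was 2.56 (SE 0.66) on the log2 scale and 1.59 without metastasis line 5. It was the 1 member of 5 that was higher without overlap in that comparison, beside 4.43% of all genes tested. Metastasis minus primary was 1.41 (SE 0.63), and it was 0.44 without metastasis line 5, whose level was 3.40-fold above the second library. CTC minus primary was -1.15 (SE 0.63), and with the title numbers as a block, which leaves 1 residual degree of freedom, it turned to 0.32. Levels of Pdgfc here and below include Pdgfc-202, a transcript annotated for nonsense-mediated decay. It took 0.332% of the Pdgfc counts in primary line 8, 50.2% in CTC line 1 and 14.6% to 27.1% in the other libraries.

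Pdgfd (ENSMUSG00000032006.15, chr9:6168584-6378850, plus strand), which encodes the other latent ligand, had 0 counts in all 10 libraries. A count of 0 allows up to 3 counts, or 0.039 to 0.0465 CPM in these libraries, so it was not detectable at this depth. It was the 1 member of 6 that did not pass the filter on low counts. Assembled transcripts tied to no gene took 19.7% to 22.8% of each library, and reads of a member counted under them are not seen here.

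Levels of different genes were compared per length, in TPM. Averaged over the 10 libraries, Pdgfa led at 69.6 TPM, followed by Pdgfb at 23.2, Pdgfra at 20.1, Pdgfc at 12.6 and Pdgfrb at 1.258. In the parental line Pdgfb was highest, with 58.4 TPM beside 32.7 TPM of Pdgfa, 6.98 of Pdgfc and 1.29 of Pdgfra. In metastasis line 5 the order was another, with 199 TPM of Pdgfa, 75.5 of Pdgfra and 51.0 of Pdgfc beside 6.56 of Pdgfb and 6.42 of Pdgfrb.

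Pdgfb made up 59.53% of the summed ligand TPM in the parental line and 52.13% in primary line 8, where it was the leading ligand. In the other 8 libraries Pdgfa led, from 53.29% in primary line 7 to 90.43% in CTC line 1. The summed ligand level ran from 45.7 TPM in CTC line 6 to 119 in primary line 5 over 9 libraries and was 256 TPM in metastasis line 5. Pdgfc took its largest shares, 20.16% and 19.92%, in metastasis lines 7 and 5.

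**Figure D3:**
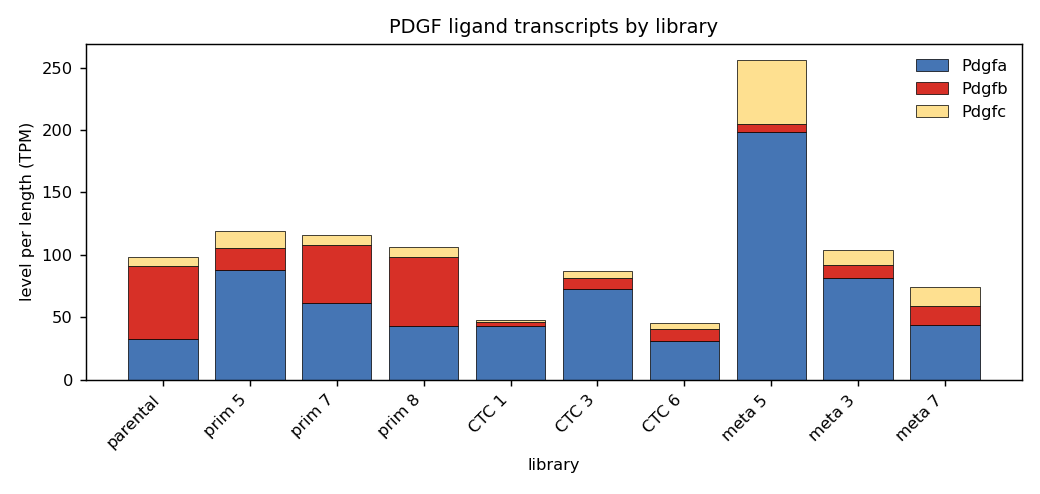
Summed level per length (TPM, stacked bars from 0) of Pdgfa, Pdgfb and Pdgfc in each library. Pdgfb is the larger part in the parental line and primary line 8, Pdgfa is the larger part in the other 8 libraries, and the sum is highest in metastasis line 5 at 256 TPM.

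In counts, the share of the long Pdgfa form, whose end is printed above, was lower in the primary lines than in the CTC and metastasis lines. The short form was counted over all 3 coding transcripts that have the coding exons of Pdgfa-202 and differ from it outside them. The long form was 36.8% of the counts of both forms in the parental line, 44.7%, 50.3% and 32.4% in primary lines 5, 7 and 8, 61.9%, 59.9% and 52.4% in CTC lines 1, 3 and 6, and 51.4%, 62.2% and 62.6% in metastasis lines 5, 3 and 7. Means were 42.4% ± 9.18 in primary, 58.1% ± 5.01 in CTC and 58.7% ± 6.37 in metastasis lines (SD, n = 3 each). In counts the primary lines did not overlap with either other group, but primary line 7 was close to metastasis line 5 and CTC line 6, at 50.3% beside 51.4% and 52.4%. The shares are not per length, while the coding transcripts are 1287 to 2060 bases long and their mix differs between lines. The lack of overlap thus holds for counts only. Wilson 95% intervals reached 0.85 to 2.38 points to either side over the libraries and cover counting error only. How often the form shares of other genes separate these groups was not counted, so nothing is read from the lack of overlap. The shares come from the same reads as the gene level, so no test was made, and how reads were divided between the forms was not tested.

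**Figure D4:**
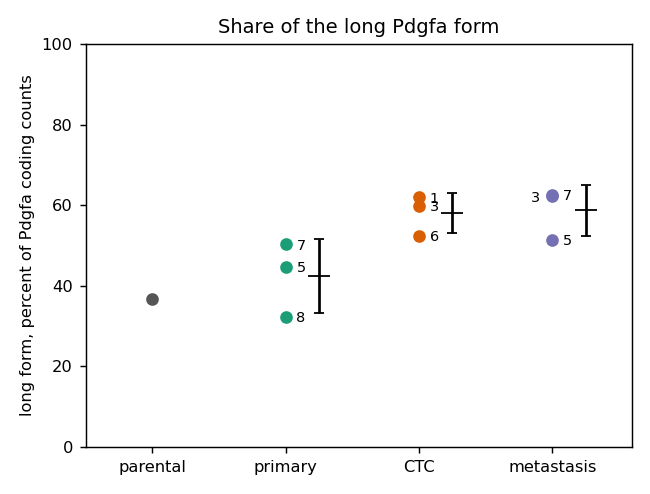
Share of the long Pdgfa form (percent of the counts of both coding forms, axis from 0 to 100) by group, with 1 point per library, its title number beside it, and the mean ± SD of the 3 lines of each derived group in black. The primary lines lie between 32.4% and 50.3% and the CTC and metastasis lines between 51.4% and 62.6%.

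Some lines carry the same number in 2 groups. Going from primary to metastasis line 5, Pdgfra was 4.64-fold, Pdgfa 2.47-fold and Pdgfc 4.18-fold as high, and Pdgfb was at 0.384 of its level. From primary to metastasis line 7, Pdgfra was 2.33-fold and Pdgfc 1.97-fold as high, with Pdgfa at 0.661 and Pdgfb at 0.325. From CTC to metastasis line 3, Pdgfc was 2.33-fold as high, while Pdgfra was at 0.891, Pdgfa at 1.08-fold and Pdgfb at 1.15-fold. Pdgfc was the member higher in the metastasis line of all 3 pairs, and Pdgfb was lower in both pairs that start from a primary line.

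Within groups, the pooled SD of log2 CPM was 4.20 for Pdgfrb, where it rests on libraries at 0, 2.17 for Pdgfra and 0.78 to 0.88 for Pdgfa, Pdgfb and Pdgfc. Over the 10 libraries, which share a parental line, the Pearson correlation of log2 CPM was 0.71 between Pdgfra and Pdgfa, -0.80 between Pdgfra and Pdgfb and 0.66 between Pdgfa and Pdgfc. The genes most like Pdgfra in pattern over the 10 libraries were Ank (r = 0.99), a pyrophosphate transporter, Creb3l2, Pdlim2 and Scara5. For Pdgfb they were Tuft1, Ddah1, Atp1b1 and Polb (r = 0.93 to 0.96), and for Pdgfa they were Anxa6, Mthfsd, Slc12a5 and Tecr (r = 0.94 to 0.95). Pdgfc was most like the integrin gene Itgb5 (r = 0.94), followed by Porcn, Fn1 and Stx6 (r = 0.90), and Pdgfrb was most like Utrn, Grtp1, Adgra2 and Acsf2 (r = 0.92 to 0.94). These r values are the highest among 10255 genes (10256 for Pdgfrb) and are given as a description only.

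Beyond the members, 6 lists held 88 gene names of the pathway. Of these, 87 were in the gene table, and 80 passed the filter on low counts and were tested. With p-values adjusted by Benjamini-Hochberg over all 19935 genes, edgeR's quasi-likelihood test called 0 of the 80 in any of the comparisons. The background was 0.0% of all genes called in metastasis against primary, 0.0% in CTC against primary, 0.00502% (1 gene) in metastasis against CTC and 0.0201% (4 genes) in derived against parental. At an unadjusted p under 0.05, 5 of the 80 were counted in metastasis against primary, 5 in CTC against primary, 1 in metastasis against CTC and 18 in derived against parental, beside 8.29%, 4.06%, 3.29% and 10.3% of all genes. For any difference among the derived groups it was 4 of the 80, beside 5.2% of all genes, with 0 called by edgeR (0.0% of all genes) and 1 by DESeq2 (0.653% of its genes). DESeq2 called 1, 1, 0 and 5 of the 80, beside 1.02%, 0.347%, 0.145% and 4.2% of the genes it gave an adjusted p. The median log2 differences of the 80 were -0.11, -0.02, -0.06 and 0.10, beside 0.01, -0.01, 0.00 and 0.10 for all genes. In metastasis against primary 35 of the 80 were higher and 45 lower.

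Genes that process or bind PDGFs were 14 of the 80. Plat and Plau encode plasminogen activators, of which Plat is known to activate PDGF-CC and Plau PDGF-DD. Plat was at 9.46 ± 5.30, 11.2 ± 7.97 and 14.3 ± 1.5 CPM in primary, CTC and metastasis lines. Plau was at 70.7 ± 26.9, 95.5 ± 88.2 and 60.2 ± 52.2 CPM, and neither passed edgeR's test.

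Furin, the convertase known to cleave the PDGF-A and PDGF-B precursors, was at 173 CPM in the parental line and at 110 ± 21.8, 85.0 ± 11.0 and 71.7 ± 29.4 CPM in the derived groups, with no edgeR call. Lrp1, a co-receptor of PDGFR-beta, was at 177 CPM in the parental line and at 370 to 1545 CPM in the derived lines. The log2 difference of Lrp1 between derived and parental lines was 2.43 (SE 0.88, edgeR adjusted p = 0.472). DESeq2 called Lrp1 in that comparison, with Egr1, Egr2, Pik3cd and Il34, the last 4 of which are named here after their values were seen. Nrp1, a co-receptor for several growth factors, was at 17.0 ± 9.999, 9.70 ± 5.17 and 11.8 ± 7.48 CPM in primary, CTC and metastasis lines. The other abundant genes of this list were Nrp2 (434 to 891 CPM) and Sparc (130 to 513 CPM), which encodes a matrix protein that binds PDGF-B.

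Of the related receptors, 3 of 6 passed the filter. Flt1, a VEGF receptor, was at 52.1 ± 9.91, 86.5 ± 40.5 and 92.7 ± 50.6 CPM in primary, CTC and metastasis lines, while Csf1r, Flt3 and Kit were below 1 CPM in every library. The list of their ligands held 10 names, of which 9 were in the gene table and all 9 were tested. Csf1, the macrophage growth factor, was at 922 CPM in the parental line and at 553 ± 255, 286 ± 71.4 and 295 ± 24.1 CPM in primary, CTC and metastasis lines. The log2 difference of Csf1 between derived and parental lines was -1.36 (SE 0.42, edgeR adjusted p = 0.452). Vegfa was at 63.2 to 275 CPM, Kitl at 42.8 to 202.2 CPM, and Vegfc at 40.7 CPM in the parental line and 2.53 to 21.5 CPM in the derived lines.

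Of the genes that signal at the receptor, 23 were tested, and the most abundant were the phosphatase Ptpn11 and the adaptors Crk (200 to 350 CPM) and Shc1 (105 to 275 CPM). Ptpn11 was at 374 ± 98.2, 289 ± 68.1 and 261 ± 21.3 CPM in primary, CTC and metastasis lines, and none of the 23 passed edgeR's test. Sos2, a Ras activator with the smallest p of the list, was at 37.2 ± 12.8, 65.9 ± 17.8 and 54.6 ± 13.5 CPM. The turnover and phosphatase genes were 12 of the 80, with no edgeR call. Ptpn1 and Sh2b3 were at 89.5 to 155 and 42.1 to 138 CPM, and Ptpn12, a phosphatase that acts on PDGFR-beta, was at 62.4 ± 9.46, 40.8 ± 4.03 and 41.5 ± 11.4 CPM.

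Growth factor response genes were 19 of the 80. Junb was at 716 CPM in the parental line and at 374 ± 187, 197 ± 65.8 and 192 ± 58.4 CPM in primary, CTC and metastasis lines, and its log2 difference between derived and parental lines was -1.57 (SE 0.46, edgeR adjusted p = 0.452). Myc spanned 182 to 1738 CPM, with 1579, 1738 and 1436 CPM in the parental line, primary line 8 and CTC line 6 as the 3 highest. Jun was at 114 to 600 CPM, and Srf, the serum response factor, was at 54.9 ± 15.6, 31.7 ± 4.42 and 33.4 ± 6.62 CPM in primary, CTC and metastasis lines. Dusp6, named here after its values were seen, was at 228 to 428 CPM in the 5 libraries highest in Pdgfra and 53.6 to 116 CPM elsewhere. Egr2, Egr3 and Ier2 also split the libraries as Pdgfra did, while Myc and Fosl2 were lower in those 5 without overlap. The other tested genes of the list overlapped between these sets, and the part of Pdgfra in any of them was not tested.

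Since Pdgfra and Pdgfrb also mark fibroblasts and pericytes, markers of host cells were read in the same libraries. The 10 fibroblast markers summed to 1.10 CPM in the parental line, 1.14 to 4.84 in primary, 0.961 to 1.84 in CTC and 3.68 to 20.8 CPM in metastasis lines. Metastasis line 5 was the highest, mostly through Dcn at 12.4 CPM and Pi16 at 5.67, while Col1a1 was at 2.08 CPM and Col3a1 at 0.325 CPM there, and 6 of the 10 were below 1 CPM in every library. Dcn was at 3.68 CPM in metastasis line 3, 2.22 in primary line 5, 1.59 and 0.852 in CTC lines 1 and 3, and 0 to 0.61 elsewhere. Its levels thus split the libraries as those of Pdgfra did, while Col1a1 was highest in primary line 7, at 2.315 CPM. The 11 pericyte and smooth muscle markers summed to 14.6 CPM in the parental line, 13.8 to 33.5 in primary, 6.34 to 18.1 in CTC and 10.6 to 24.0 CPM in metastasis lines, most of it from Mcam. Of these markers 7 were below 1 CPM in every library, and Kcnj8 was at 0 in all. In metastasis line 5 Mcam was at 21.2 CPM, Notch3 at 1.29 CPM, its highest level, and Acta2 and Des at 0.377 and 0.286 CPM. Rgs5 and Abcc9, which are known from pericytes, were at 0 there and in primary line 5, where Notch3 was at 0.279 CPM. The part of these markers in the Pdgfrb levels was not tested.

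The 7 endothelial markers summed to 0.314 to 1.49 CPM with Emcn at 0 throughout, and the 9 leukocyte and platelet markers to 2.73 to 8.27 CPM with Adgre1 and Cd3e at 0 throughout. In bulk RNA, fewer cells of a type and less RNA per cell cannot be told apart. The part of the fibroblast markers in the member levels of metastasis line 5 and of the other lines high in Pdgfra was not tested.

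Some markers of the epithelial and mesenchymal state of the tumour cells moved with some of the member levels, and their part in them was not tested. Epcam was at 131 ± 73.7, 24.0 ± 13.6 and 33.0 ± 12.8 CPM in primary, CTC and metastasis lines, with primary line 5, at 56.3 CPM, the lowest of its group, as it was for Pdgfb. The parental line, which was the highest for Pdgfb, was at 56.0 CPM for Epcam, so the likeness did not extend to it. The log2 difference of Epcam was -2.45 (SE 0.57, edgeR adjusted p = 0.994) for CTC minus primary and -1.99 (SE 0.56, edgeR adjusted p = 0.594) for metastasis minus primary. In at least 1 alternative run Epcam passed an adjusted 0.05 for CTC minus primary, and in none for metastasis minus primary. Cdh1, the epithelial cadherin, was at 366 CPM in the parental line, at 107, 627 and 419 CPM in primary lines 5, 7 and 8, at 94.2, 77.7 and 150.2 CPM in CTC lines 1, 3 and 6, and at 88.7, 77.3 and 391 CPM in metastasis lines 5, 3 and 7. Vim, the mesenchymal filament vimentin, was at 301 CPM in the parental line, at 3722, 2117 and 955 CPM in the primary lines, at 4750, 4485 and 1443 CPM in the CTC lines and at 2015, 3439 and 584 CPM in the metastasis lines, in the same order. The 5 libraries lowest in Cdh1 were the 5 highest in Pdgfra. Krt18, a keratin gene, went the other way from Cdh1, at 1157 to 1462 CPM in those libraries and 303 to 1077 CPM in the others. Zeb2 and Snai1 overlapped between these sets of libraries, and Cdh2 was at 0 in all. Fn1 was at 1170 to 6753 CPM, highest in metastasis line 5. Of the 18 tested genes of this list, 0 passed edgeR's test in any comparison. At an unadjusted p under 0.05, 6 were counted in metastasis against primary, 9 in CTC against primary, 1 in metastasis against CTC and 5 in derived against parental, beside the shares of all genes given above (8.29%, 4.06%, 3.29% and 10.3%). DESeq2 called 2, 2, 0 and 1 of them, beside 1.02%, 0.347%, 0.145% and 4.2% of its genes.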

How the data were processed

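RNA-seq libraries of 10 mouse cell lines were analysed. The deposited gene and transcript tables hold estimated counts, which the authors made with HISAT2 2.1.0 and StringTie 2.0.3 on GRCm38, per the submitters' processing notes, which also name DESeq2 1.26.0. The values are whole numbers, so no rounding was needed. The annotation release and the strand setting are not given in the sources used here. GENCODE M21, which gave positions, holds all 141692 transcript names with an Ensembl identifier. Total counts were 79869760 to 97722716 per library. Of 72544 entries, 17127 assembled entries with no gene name stayed out of library sizes and tests, and 1 partly filled transcript entry was left out.

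Counts of the 55417 named genes were fitted with edgeR 4.0.16 (R 4.3.3, limma 3.58.1): TMM factors, filterByExpr at its defaults (19935 genes tested), 1 quasi-likelihood fit of 4 groups (residual degrees of freedom 6, common biological coefficient of variation 0.606) and Benjamini-Hochberg adjustment at 0.05. The parental group has 1 library and is assumed to vary like the others. The filter was given the groups, so a gene could pass through 1 library alone. The genes tested, and the shares of all genes, therefore include some near 0 in most libraries, such as Csf1r. CPM are TMM-scaled, TPM were computed from annotated transcript counts and lengths, and likeness used log2 CPM with a prior count of 2. Nothing says that the lines are independent cultures, so p-values reflect the spread between these libraries alone, which may be technical. The scripts were tested on simulated data. DESeq2 1.42.0, other scalings and filters, all entries and each derived library left out were alternatives.

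The members and lists were chosen with earlier results of these data known. The named genes are the members, the 3 most abundant genes and the gene with the smallest p for any difference among derived groups of each list, the 4 genes most like each member, and always Furin, Plat, Plau, Nrp1, Lrp1, Kit, Csf1r, Vegfa, Vegfc, Vim, Epcam and Cdh1. Some genes that this rule names are not reported here. The fibroblast, pericyte, endothelial and leukocyte lists are given as summed levels. Deviations from the group means correlated at r = 0.32, 0.12 and 0.41 between lines numbered 5, 7 and 3 (median of the 24 other pairs -0.05, highest 0.51). Each was above 0.1, so the numbers were used as a block in an alternative. Pairs of unlike number were above all of them for CTC line 6 with metastasis line 7 (0.51) and with primary line 8 (0.43). These values therefore do not show what the numbers mark, and the labels do not say it.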

Additional observations from a re-analysis of the deposited data

How the results depend on the processing

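With the replicate block, which pairs lines by title number in the derived lines alone and leaves 1 residual degree of freedom, the log2 difference of Pdgfa between metastasis and CTC lines was 0.095, that of Pdgfc was 1.207 for metastasis minus CTC and 0.319 for CTC minus primary, where the sign turned, and 0 pathway genes were called. It also turned Pdgfra to -0.18 for metastasis minus CTC and Pdgfa to 0.27 for CTC minus primary, both within the spread between lines. DESeq2 called 5 pathway genes in derived against parental, 1 each in CTC and in metastasis against primary, 0 in metastasis against CTC, and 1 for any difference among derived groups, where edgeR called 0. DESeq2 called 4.2%, 0.347% (CTC), 1.02% (metastasis), 0.145% and 0.653% of all its genes in these comparisons. In CPM over all entries without factors the parental levels were 3.28 for Pdgfra, 22.8 for Pdgfa, 75.3 for Pdgfb and 10.6 for Pdgfc. The means of the derived groups were lower too, with Pdgfra at 18.6, 59.2 and 111 in primary, CTC and metastasis lines. They stayed within the SD of their groups, while the single parental library was judged by counting error alone.

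With each derived library left out in turn, metastasis minus primary ranged from 1.618 to 4.929 for Pdgfra (highest without primary line 5), -0.139 to 1.111 for Pdgfa (lowest without metastasis line 5), -2.335 to -1.559 for Pdgfb and 0.444 to 1.765 for Pdgfc (lowest without metastasis line 5). CTC minus primary ranged from 0.886 to 4.065 for Pdgfra (highest without primary line 5), -0.743 to -0.161 for Pdgfa, -2.85 to -2.077 for Pdgfb and -1.526 to -0.78 for Pdgfc. Metastasis minus CTC ranged from -0.121 to 1.715 for Pdgfra, 0.258 to 1.508 for Pdgfa, 0.133 to 0.838 for Pdgfb and 1.591 to 2.938 for Pdgfc. Derived minus parental ranged from 2.999 to 3.958 for Pdgfra, 0.666 to 1.083 for Pdgfa, -2.235 to -1.995 for Pdgfb and 0.036 to 0.481 for Pdgfc. The causes were not tested. Over all alternatives for the log2 differences, 9 values moved by more than the spread between lines and 243 by less. Some of the 243 leave out a library of a group outside the comparison, which hardly changes the difference. The spread is the pooled SD within groups, 2.17 for Pdgfra, so changes of sign also count as less. The tally is therefore no measure of how stable the differences are. Pdgfb kept its sign in both comparisons with primary lines and against the parental line in every alternative run.

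Limits: each line is 1 library, the parental line has no replicate, and 3 lines per group with an SD near the mean leave differences of Pdgfra loosely fixed. Counts limited Pdgfd and most Pdgfrb values. Transcript shares rest on the authors' division of reads.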
